A study of Rattus norvegicus with 6 samples.

Results

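Collagens, laminins, elastic fibre proteins, fibronectin and matricellular proteins, small and large proteoglycans and integrins were examined in whole rat ovaries at birth, on postnatal day 4 and after culture. Members were taken by symbol: every probe set whose platform annotation gave exactly 1 symbol of a collagen alpha chain, a laminin chain or an integrin alpha or beta chain, a symbol that begins Fbln (fibulins) or Fbn (fibrillins), or the symbol Eln, Lox, Postn, Fn1, Sparc, Dcn, Bgn, Lum, Vcan or Tnc. This gave 72 of the 8799 probe sets on the array, for 43 genes. No fibrillin was among them. Of the 72, 60 probe sets of 38 genes passed a filter on dim signal and were tested. The other 12 read between 1.7 and 24.9, and 5 genes had no tested probe set: Col2a1, Col9a1, Lama5, Itgav and Itgam.

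The extracellular matrix is the protein scaffold around and between cells. Fibrillar collagens form its cables, which lysyl oxidase crosslinks together with elastin. Laminins and type IV collagens form the basement membrane, the sheet that encloses each ovarian follicle. Cells hold on to both kinds of matrix through integrins, receptors built of an alpha and a beta chain. In the newborn rat ovary, nests of oocytes break up, each oocyte becomes surrounded by a layer of flattened pregranulosa cells as a primordial follicle, and the first follicles begin to grow.

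Affymetrix Rat Genome U34 A arrays, on which a probe set is a group of short oligonucleotides that report 1 intensity for a transcript or for several similar transcripts, were used for 6 RNA pools. The 3 groups had 2 arrays each: ovaries on the day of birth (P0), ovaries on postnatal day 4 (P4), and ovaries removed at birth and grown on floating filters for 7 days (cultured). The medium was serum-free DMEM and Ham's F-12 with bovine serum albumin, Albumax, transferrin, insulin, ascorbic acid and antibiotics. Each pool came from about 20 ovaries, and the labels call the 2 pools of a group independent. By the chip identifiers on the labels, the 2 pools of every group lie in different batches. Unpaired p-values therefore measure the spread between pools and batches together, estimated jointly over the 3 groups. The series design text speaks of progesterone treatment of cultured ovaries, which neither cultured array's label gives, and whether it applied is unsettled. Cultured and P4 ovaries differ both in being cultured and in the days since birth, which cannot be told apart. The chip identifiers on the labels also put each cultured array in a batch that holds no P0 or P4 array. Batch therefore cannot be told apart from culture in either comparison with culture.

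Differences are log2 changes of intensity after adding 7.7 (the 20th percentile of all values), from 1 limma model of the 3 groups. Values of P4 against P0 paired by batch came from a separate limma fit of the P0 and P4 arrays alone, with the batch as a block. A probe set was called higher or lower where its p-value, adjusted by Benjamini-Hochberg across the 6118 probe sets tested, was under 0.05. The precision was set by the number of arrays: the median standard error (SE) of a log2 change was 0.26 over all probe sets and 0.27 over the members. An exact permutation test of 2 against 2 arrays cannot go below 0.333. A control level of 20, the highest reading of 23 control probe sets without a spiked transcript, marks signal that may be background. Of the tested members 45 were above it on all 6 arrays and 15 were at or below it on at least 1. The deposited values had been scaled: the mean of each array after trimming 2% at both ends was 125.2.

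Without pairing by batch, few members were called between birth and day 4, and those called in culture were all lower. From P0 to P4, 1 of 60 members was called higher (1.67%), beside 0.85% of all probe sets tested, and 0 were called lower, beside 0.229%. With P0 and P4 arrays of the same chip ID batch paired, as described further on, 1 was higher, beside 3.17% of all, and 4 were lower (6.67%), beside 1.96%. In cultured against P0 ovaries 0 members were called higher, beside 3.48% of all, and 4 (of 3 genes) were lower, 6.67% beside 1.95%. In cultured against P4 ovaries 0 were called higher, beside 2.16%, and 3 (of 2 genes) were lower, 5% beside 0.621%. For these counts of 0, an unadjusted p under 0.05 was reached by 6 members lower at P4 (10%, beside 6.46% of all), by 3 higher in cultured against P0 ovaries (5%, beside 10.2%) and by 3 higher in cultured against P4 ovaries (5%, beside 7.63%). The 2 comparisons with culture share the cultured arrays and those with P0 share the P0 arrays.

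Members were also counted where the 2 arrays of a group lay wholly on one side of the other group's 2. From P0 to P4, 8 members (13.3%) were higher without overlap, beside 18.6% of all probe sets, and 17 (28.3%) were lower, beside 25.7%. In cultured against P0 ovaries 7 (11.7%) were higher, beside 21.3%, and 21 (35%) were lower, beside 29%. In cultured against P4 ovaries 7 (11.7%) were higher, beside 19.1%, and 23 (38.3%) were lower, beside 24.5%. The median log2 change of the members was -0.04 from P0 to P4, -0.29 in cultured against P0 and -0.23 in cultured against P4 ovaries, beside -0.05, -0.08 and -0.04 over all probe sets tested.

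**Figure D1:**
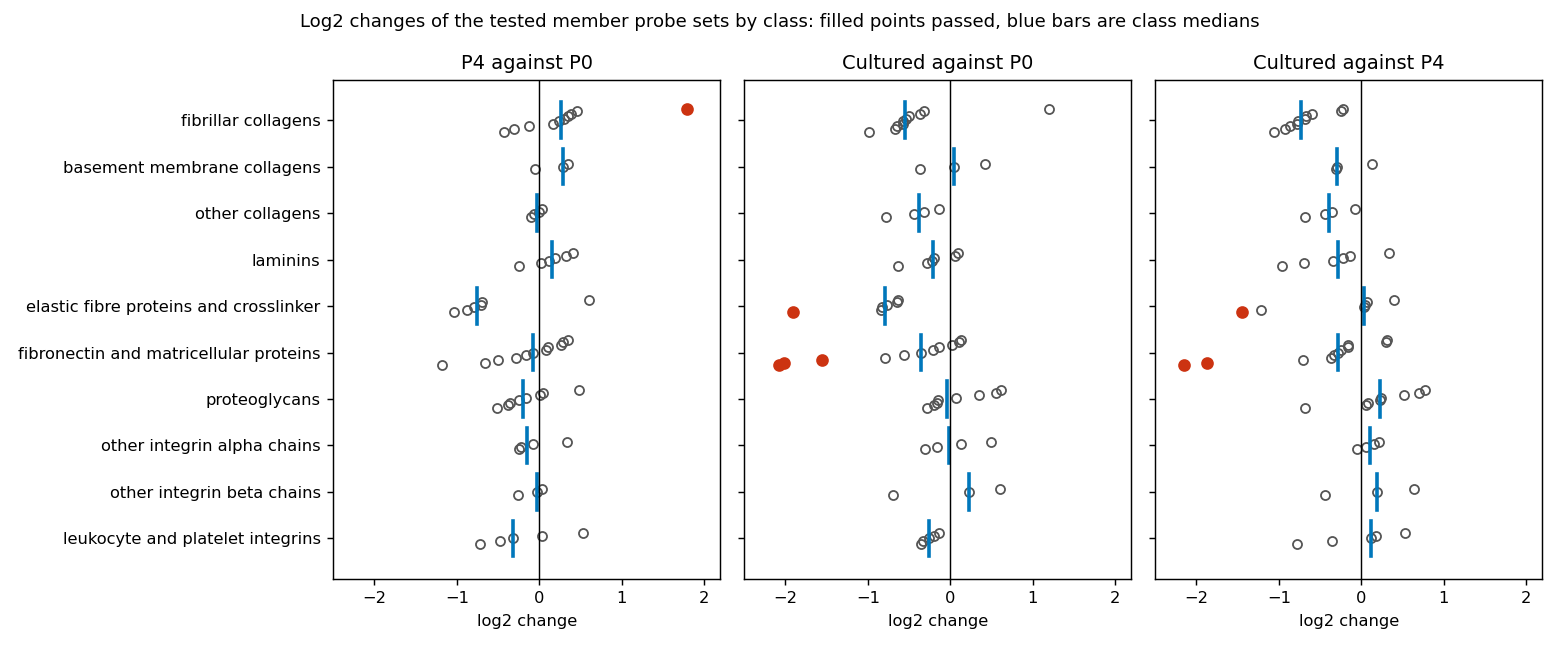
Each point is 1 tested member probe set; the x axis is its log2 change in the comparison named above the panel, rows are classes, filled red points passed at an adjusted p under 0.05, and blue bars are class medians. The fibrillar collagens all lie left of 0 in cultured against P4 ovaries (median -0.73), while the filled points belong to Col11a1, Eln, Tnc, Postn and Fbln5.

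The 5 genes with a call in the 3 unpaired comparisons were Tnc, Postn, Eln, Fbln5 and Col11a1. The stretch around the transcription start, 250 bases before it to 50 after, was in RefSeq (rat assembly GRCr8) for 4 of them and is shown because these genes carry the called differences. Each is written 5′ to 3′ on the strand of its gene: Tnc is at chr5:82476082-82476381 (minus strand), Postn at chr2:140677811-140678110 (plus), Fbln5 at chr6:126742657-126742956 (minus) and Col11a1 at chr2:204508886-204509185 (plus). Capitals mark matches on either strand to the TATA box, TATAAA, to the CCAAT motif, or to the GC box, GGGCGG.
Tnc: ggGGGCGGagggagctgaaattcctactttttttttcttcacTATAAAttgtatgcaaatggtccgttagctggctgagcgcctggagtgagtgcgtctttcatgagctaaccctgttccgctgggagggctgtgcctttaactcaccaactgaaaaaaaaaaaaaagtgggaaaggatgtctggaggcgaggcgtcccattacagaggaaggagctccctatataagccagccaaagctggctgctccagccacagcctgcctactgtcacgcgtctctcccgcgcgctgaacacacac
Postn: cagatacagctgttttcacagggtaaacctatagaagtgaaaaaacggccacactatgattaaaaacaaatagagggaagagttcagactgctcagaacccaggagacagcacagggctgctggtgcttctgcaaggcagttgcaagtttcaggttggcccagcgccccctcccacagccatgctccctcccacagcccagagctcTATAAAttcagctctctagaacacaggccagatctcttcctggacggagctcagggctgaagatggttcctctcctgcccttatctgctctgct
Fbln5: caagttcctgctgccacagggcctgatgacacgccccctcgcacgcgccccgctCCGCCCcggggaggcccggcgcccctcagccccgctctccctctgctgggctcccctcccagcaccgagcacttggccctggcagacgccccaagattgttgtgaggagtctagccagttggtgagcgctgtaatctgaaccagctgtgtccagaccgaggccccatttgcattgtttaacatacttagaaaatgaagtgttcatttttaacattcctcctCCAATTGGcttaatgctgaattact
Col11a1: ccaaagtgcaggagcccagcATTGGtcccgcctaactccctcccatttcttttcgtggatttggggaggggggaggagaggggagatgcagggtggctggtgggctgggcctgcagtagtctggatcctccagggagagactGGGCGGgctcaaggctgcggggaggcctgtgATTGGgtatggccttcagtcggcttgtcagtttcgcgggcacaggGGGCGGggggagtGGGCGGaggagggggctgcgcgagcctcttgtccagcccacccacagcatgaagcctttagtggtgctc
Counted from the first transcribed base as 1, with the base before it as -1, Postn has TATAAA from -44 to -39, and Tnc has it from -208 to -203. Only these exact letters were searched, so near matches are not marked, such as TATAAG closer to the start of Tnc. The Col11a1 stretch holds GGGCGG 3 times and CCAAT, on the other strand, 2 times, and no TATAAA. In the Fbln5 stretch CCAAT starts at 26 and overlaps a match on the other strand from 29 to 33, both past the start. TGANTCA, the AP-1 motif, was searched for as well and is in none of the 4. Among 31 stretches of 30 member genes (Vcan has 2), TATAAA was in 16.13% (5) beside 14.22% of all 33465 stretches, CCAAT in 25.81% (8) beside 37.5%, GGGCGG in 51.61% (16) beside 33.07% and TGANTCA in 3.226% (1) beside 7.33%. These matches are a description of the letters only.

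Fibrillar collagens, the chains of types I, II, III, V and XI, included some of the brightest members, and 10 of their 13 probe sets (6 of 7 genes) were tested. At P4 1 was higher than at P0, Col11a1, and none of the 10 was called in either comparison with culture. Their median change was 0.27 from P0 to P4, -0.55 in cultured against P0 ovaries and -0.73 in cultured against P4 ovaries. In the last comparison 10 of 10 probe sets had a negative change, beside 3367 of 6118 over all. Of the 10, 6 were lower without overlap, beside 24.5% of all. The 10 probe sets cover 6 genes, with 4 for Col1a1 and 2 for Col3a1, and were read on the same pools. The medians leaned on single arrays: the first was -0.07 without P4 replicate 2, the second -0.23 without cultured replicate 2 and -0.87 without cultured replicate 1, and the third -0.41 without P4 replicate 2 and -1.16 without cultured replicate 1. At an unadjusted p under 0.05, 1 was higher and 3 were lower in cultured against P0 ovaries, and 4 were lower in cultured against P4 ovaries. Whole ovaries were measured, so fewer cells of a type and less RNA per cell cannot be told apart.

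Col11a1, an alpha chain of type XI collagen that combines with type V in fibrils, read 34.2 and 16.7 at P0, 118.3 and 90.7 at P4 and 74.2 and 58.3 in culture. Both P0 pools were lower than every other pool, and 1 of them was under the control level. The change from P0 to P4 was 1.80 (SE 0.30, adjusted p = 0.0304), at least 3.96-fold with the dim array set to 20. Between the 2 arrays of chip ID batch A it was 1.59 and between those of B 2.01, and with the batches paired the adjusted p was 0.00189. Leaving out any 1 of 4 arrays ended the call: the change was 1.41 without the second P0 pool (adjusted p = 0.14) and 1.62 without the first P4 pool (adjusted p = 0.154), and without the first or the second cultured pool the adjusted p was 0.0765 or 0.0767. Cultured against P0 the change was 1.20 (adjusted p = 0.0527). A further Col11a1 probe set read 2.2 to 14.0 on the 6 arrays, under the control level on each, and was not tested.

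Type I collagen, the most abundant fibrillar type, was covered by 4 Col1a1 probe sets and 1 of Col1a2. The brightest Col1a1 probe set read 4248.0 and 4123.8 at P0, 3618.3 and 4098.2 at P4 and 3074.2 and 3450.9 in culture. Both cultured arrays were below the other 4, but the change from P0 was -0.36 (adjusted p = 0.155) and that from P4 -0.24 (adjusted p = 0.478). After quantile normalization these 2 changes were -0.01 and -0.10. The change from P0 to P4 went from -0.12 to 0.09. The size of these differences, and the sign of the last, thus depended on how the arrays were scaled. All 4 Col1a1 probe sets had a negative change in cultured against P4 ovaries, from -1.06 to -0.24, with adjusted p from 0.133 to 0.478. The lowest of these, -1.06, became -1.45 and passed without P4 replicate 1 (adjusted p = 0.0458). Col1a2, the partner chain of type I, read 1974.7 and 2103.5 at P0, 2133.9 and 2446.6 at P4 and 1576.7 and 1310.4 in culture. The cultured arrays were again the lowest pair, at -0.67 against P4 (adjusted p = 0.0634) and -0.50 against P0 (adjusted p = 0.109).

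Col3a1, the type III chain that is common in soft and growing tissue, had 2 probe sets. The brighter read 3681.4 and 5098.1 at P0, 4161.9 and 6274.0 at P4 and 3713.9 and 2405.1 in culture, the highest member readings of all at P4. Its cultured arrays overlapped those of P0 and lay below those of P4 (-0.77, adjusted p = 0.182). Col5a1 and Col5a2, chains of type V, which regulates fibril width, did not pass in any comparison. Col5a1 read 216.2 and 484.8 at P0, 157.3 and 427.3 at P4 and 259.8 and 96.6 in culture, so that the 2 pools of each group differed more than the groups. Col5a2 read 1018.8 and 1342.0 at P0, 778.6 and 966.2 at P4 and 877.7 and 626.2 in culture, with both later groups below P0 (-0.43 at P4, adjusted p = 0.471; -0.65 in culture, adjusted p = 0.139). Both Col2a1 probe sets, for the cartilage collagen, read 2.1 to 13.9.

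Of the collagens of basement membranes, 3 probe sets of 3 genes were tested and 0 were called. Col4a5, a type IV chain, read 143.3 and 160.8 at P0, 127.4 and 166.4 at P4 and 128.3 and 104.9 in culture, with a change of -0.37 from P0 to culture (adjusted p = 0.416). Col15a1, a collagen next to basement membranes, read 72.6 and 57.7, 87.1 and 75.0, and 79.7 and 100 in the same order. Both later groups were above P0 without overlap, but the changes were 0.29 (adjusted p = 0.678) and 0.42 (adjusted p = 0.358). Col4a3, another type IV chain, read 10.8 to 22.0, close to the control level. Col4a1 and Col4a2 were not analysed here. At an unadjusted p under 0.05 the limma count was also 0 in each comparison.

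Among the other collagens, 4 of 6 probe sets were tested, 0 were called, and all 4 changes in culture were negative against P0 and against P4. Over all 6118 probe sets tested, 3541 changes were negative against P0 and 3367 against P4. Col26a1 read 106.5 and 116.1 at P0, 84.8 and 126.6 at P4 and 68.8 and 55.5 in culture, both cultured arrays below the other 4 (-0.77 against P0, adjusted p = 0.115). Col10a1, the collagen of hypertrophic cartilage, gave 48.9 and 52.1, 47.9 and 53.4, and 32.9 and 37.8 on its brighter probe set, also without overlap in culture (-0.44 against P0, adjusted p = 0.333). Col12a1, a collagen that attaches to fibril surfaces, read 35.7 to 61.8, and Col8a1, a short-chain collagen, read 5.6 to 38.8 with replicate 2 above replicate 1 in every group. At an unadjusted p under 0.05, 1 of the 4 was lower in each comparison with culture.

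Laminins, the chains that assemble first into a basement membrane, showed no call: 0 of 6 tested probe sets passed in any comparison, and the medians were 0.16 from P0 to P4, -0.21 in cultured against P0 and -0.28 in cultured against P4 ovaries. An unadjusted p under 0.05 was reached by 1, lower in cultured against P4 ovaries. Lamc1, the gamma chain of most laminins, read 205.3 and 320.8 at P0, 248.7 and 314.9 at P4 and 208.3 and 231.8 in culture. Its groups overlapped except that both cultured arrays were below P4 (-0.34, adjusted p = 0.646). Lamb2, a beta chain, read 189.4 and 222.2, 210.3 and 263.9, and 237.5 and 191.0 on its brighter probe set, all 3 groups overlapping. Lama1, the alpha chain of early embryonic basement membranes, read 112.9 and 62.6 at P0, 144.2 and 90.3 at P4 and 79.0 and 58.1 in culture, with no overlap between culture and P4 (-0.69, adjusted p = 0.388). Lama2, the alpha chain typical of muscle, read 22.6 and 19.5, 29.2 and 27.4, and 16.1 and 6.6, near or under the control level in culture (-0.96 against P4, adjusted p = 0.216). Lama3, an epithelial alpha chain, read 15.1 to 24.7, and Lama5 4.0 to 8.0.

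The elastic fibre genes and lysyl oxidase had the most negative class median at P4, -0.75 over 6 probe sets of 3 genes, and again in cultured against P0 ovaries, -0.80, while the median between cultured and P4 ovaries was 0.04. That last median holds 4 Lox values of 0.03 to 0.40, whereas the other 2 genes had negative changes without overlap, Eln -1.22 and Fbln5 -1.45. The median at P4 likewise holds 4 Lox values, of -1.04 to -0.71. There Eln changed by -0.69 with overlap, and Fbln5 went the other way, 0.61 without overlap. In cultured against P0 ovaries all 6, of which 4 are for Lox, were lower without overlap, beside 29% of all probe sets. Of the 6, 1, Eln, was called. In cultured against P4 ovaries 1 was called, Fbln5. With the chip ID batches paired, Eln and 2 of the 4 Lox probe sets were lower at P4 than at P0.

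Eln, the elastin core of elastic fibres, read 865.5 and 1547.5 at P0, 557.3 and 917.4 at P4 and 478.2 and 190.1 in culture. The P4 arrays overlapped those at P0, but within each chip ID batch P4 was below P0, by -0.63 (A) and -0.75 (B). The P4 change of -0.69 had an adjusted p of 0.556, and of 0.0351 with the batches paired. In culture both arrays were below all P0 and P4 arrays, at -1.91 against P0 (SE 0.43, adjusted p = 0.0319) and -1.22 against P4 (adjusted p = 0.214). The call against P0 was lost without P0 replicate 2 (-1.49, adjusted p = 0.157) and without cultured replicate 2 (-1.26, adjusted p = 0.218).

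Lox, lysyl oxidase, which crosslinks collagen and elastin, was lower at P4 and in culture than at P0 on all 4 of its probe sets, with no overlap on any. The probe set with the smallest adjusted p when paired by batch read 274.1 and 202.3 at P0, 154.4 and 101.4 at P4 and 110.7 and 150.3 in culture. Its change at P4 was -0.87 (adjusted p = 0.189; paired by batch, adjusted p = 0.0248), and in cultured against P0 ovaries -0.83 (adjusted p = 0.122). A further one read 207.8 and 272.6, 113.5 and 158.5, and 189.7 and 98.7, and its change of -0.79 at P4 also passed only when paired (adjusted p = 0.033). Over the 4 probe sets the change ran from -1.04 to -0.71 at P4, from -0.83 to -0.63 in cultured against P0 and from 0.03 to 0.40 in cultured against P4 ovaries. The other 2 had adjusted p of 0.0783 and 0.103 when paired, and the dimmest of them read 3.7 to 34.4. The 4 probe sets measure 1 gene in the same pools and are not independent.

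Fbln5, fibulin 5, which helps elastin assemble on microfibrils, read 94.2 and 125.2 at P0, 167.0 and 172.2 at P4 and 63.6 and 51.6 in culture. The 3 groups did not overlap: P4 was highest and culture lowest. The change in cultured against P4 ovaries was -1.45 (SE 0.23, adjusted p = 0.00894). It was 0.61 from P0 to P4 (adjusted p = 0.288) and -0.84 in cultured against P0 ovaries (adjusted p = 0.075). The call was lost when the first P4 pool (adjusted p = 0.0511), the first cultured pool (adjusted p = 0.0511) or the second cultured pool (adjusted p = 0.094) was left out.

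**Figure D2:**
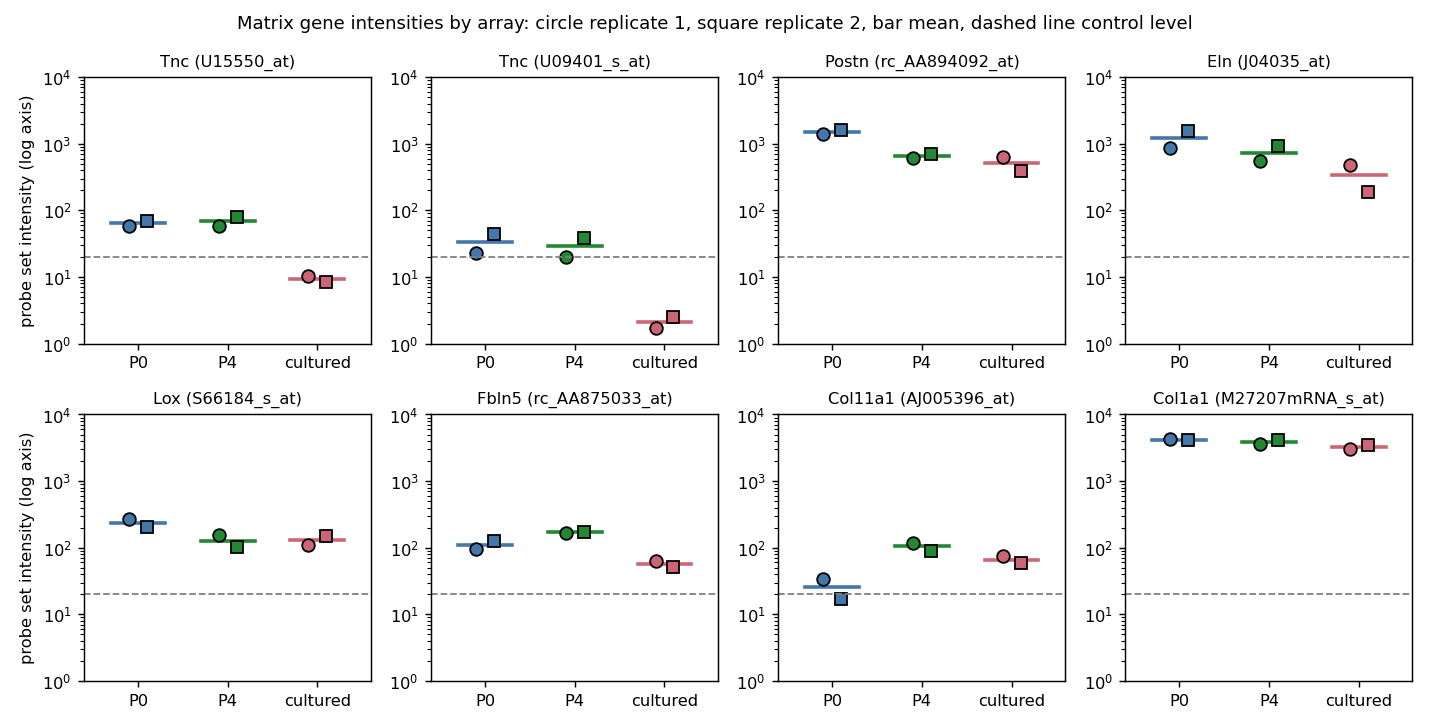
Intensity (log axis) of 8 member probe sets on the 6 arrays; circles are replicate 1, squares replicate 2, bars group means and the dashed line the control level of 20. Both cultured readings of Tnc (10.3 and 8.3 on the probe set at top left) are below the control level, Postn and Lox are lower at P4 and in culture than at P0, and Col1a1 stays between 3074.2 and 4248.0.

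Fibronectin and the matricellular proteins, matrix proteins that modulate how cells attach rather than bear load, had 11 of 13 probe sets tested, for 4 genes. In cultured against P0 ovaries 3 were lower (2 Tnc probe sets and Postn) and in cultured against P4 ovaries 2 were lower (both Tnc). At P4 0 were called, with 1 lower at an unadjusted p under 0.05, and Postn was lower when the chip ID batches were paired. The class medians were -0.08 at P4, -0.35 in cultured against P0 and -0.28 in cultured against P4 ovaries, and without P0 replicate 1 the first was -0.51 and the second -0.85. Without cultured replicate 2 the second was -0.83, and without cultured replicate 1 the third was -0.70.

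Tnc, tenascin C, a large glycoprotein of growing and remodelling connective tissue, was lower in culture than at either age on 2 of its 3 probe sets. On 1 probe set it read 58.6 and 69.7 at P0, 58.1 and 79.3 at P4 and 10.3 and 8.3 in culture, so that both cultured arrays were under the control level and the other 4 were above it. The change was -2.08 against P0 (SE 0.26, adjusted p = 0.00254; at least 3.20-fold lower) and -2.16 against P4 (adjusted p = 0.00213; at least 3.39-fold lower). Both calls held without each array in turn, with adjusted p of at most 0.0285 and 0.024. From P0 to P4 the change was 0.08 (adjusted p = 0.94). A dimmer probe set read 22.7 and 44.3, 20.1 and 38.2, and 1.7 and 2.5, and passed against P0 (-2.02, SE 0.39, adjusted p = 0.0177; at least 1.59-fold lower) and against P4 (-1.87, adjusted p = 0.0345; at least 1.39-fold lower). Against P0 its call was lost without P0 replicate 2 (adjusted p = 0.133) and without either cultured array (0.0967 and 0.0943). Against P4 it was lost without either P4 array (adjusted p = 0.0516 and 0.248) and without either cultured array (0.159 and 0.145). The third and brightest read 109.3 and 127.0, 96.2 and 128.1, and 50.1 and 83.3. It was lower in culture without overlap but did not pass (-0.79 against P0, adjusted p = 0.139; -0.71 against P4, adjusted p = 0.27), so the Tnc probe sets differed in size and in call.

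Postn, periostin, a collagen-binding protein of connective tissue and membranes, read 1390.8 and 1587.2 at P0, 609.1 and 692.1 at P4 and 640.4 and 393.4 in culture. Every later array was below both P0 arrays, and the cultured arrays overlapped those of P4. The change in cultured against P0 ovaries was -1.55 (SE 0.24, adjusted p = 0.0066), and without cultured replicate 2 it was -1.20 (adjusted p = 0.0597). From P0 to P4 it was -1.18 (adjusted p = 0.0525), with -1.18 between the arrays of chip ID batch A and -1.19 between those of B, and paired by batch it passed (adjusted p = 0.00258). Cultured and P4 ovaries differed by -0.37 (adjusted p = 0.571).

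Fn1, fibronectin, which links collagen to integrins, had 3 tested probe sets and no call. The brightest read 262.6 and 266.4 at P0, 166.7 and 204.8 at P4 and 274.0 and 190.5 in culture. Both P4 arrays were below both P0 arrays (-0.50, adjusted p = 0.425), and culture overlapped both ages. Sparc, a collagen-binding glycoprotein also called osteonectin, had 4 probe sets and no call, and its probe sets went opposite ways between pools. The brightest read 3284.4 and 2042.7 at P0, 2560.5 and 1758.8 at P4 and 1215.5 and 2514.0 in culture. Another read 250.8 and 1006.4, 472.9 and 800.8, and 809.5 and 375.1. In each group the pool that was higher on the first was lower on the second, and the 2 others followed the second.

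**Figure D3:**
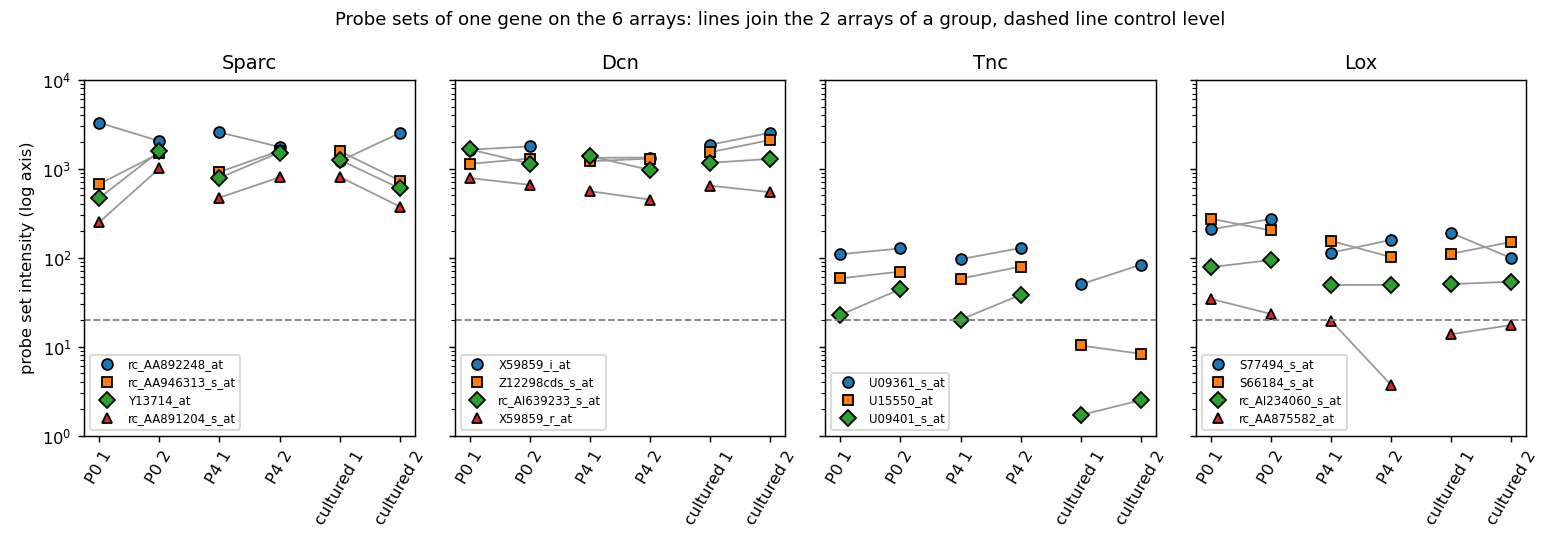
Intensity (log axis) of every tested probe set of Sparc, Dcn, Tnc and Lox on each array; lines join the 2 arrays of a group and the dashed line is the control level of 20. In Sparc 1 probe set slopes against the other 3 in all 3 groups, whereas all 4 Lox probe sets are higher at P0 than in both other groups.

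Proteoglycans of the matrix had 8 probe sets of 4 genes, all tested, and 0 called. At an unadjusted p under 0.05, 1 was lower at P4, 2 were higher in cultured against P0 ovaries, and 3 were higher and 1 was lower in cultured against P4 ovaries. Between cultured and P4 ovaries 7 of 8 changes were positive, beside 2751 of 6118 over all probe sets. Their median was 0.23 (0.49 without P4 replicate 2), beside -0.23 over all members. Lum, lumican, a small leucine-rich proteoglycan that spaces collagen fibrils, read 601.6 and 608.2 at P0, 518.5 and 567.9 at P4 and 845.5 and 1023.2 in culture. Both cultured arrays were above the other 4, at 0.61 against P0 (adjusted p = 0.0908) and 0.77 against P4 (adjusted p = 0.0608). Dcn, decorin, its relative that binds collagen and growth factors, read 1633.6 and 1782.2, 1325.1 and 1334.8, and 1858.2 and 2536.7 on its brightest probe set. Culture was above both ages there (0.35 against P0, adjusted p = 0.314; 0.70 against P4, adjusted p = 0.0782), and on 1 further probe set (0.56 against P0, adjusted p = 0.124). The 2 other Dcn probe sets had negative changes against P0, -0.16 and -0.28, so the direction against P0 depended on the probe set. Against P4 all 4 changes were positive, from 0.08 to 0.70.

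Bgn, biglycan, read 463.8 and 753.6 at P0, 460.8 and 766.0 at P4 and 753.8 and 509.7 in culture on its brighter probe set, with changes of 0.01 and 0.07 from P0. The spread lay between pools and not between groups. Vcan, versican, the large proteoglycan of loose matrix and of the expanding cumulus, read 130.8 and 98.1, 180.0 and 145.6, and 106.6 and 89.8. P4 was the highest group without overlap (0.49 against P0, adjusted p = 0.443), and culture was -0.68 against P4 (adjusted p = 0.213).

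Integrins showed no call in any comparison: 0 of 4 other alpha chain, 0 of 3 other beta chain and 0 of 5 leukocyte and platelet probe sets passed. At an unadjusted p under 0.05, 1 beta chain was lower in cultured against P0 ovaries and 1 leukocyte chain in cultured against P4 ovaries. Itgb1, the beta chain shared by most receptors for collagen, laminin and fibronectin, was the brightest integrin. It read 1142.4 and 1339.0 at P0, 1198.3 and 1332.8 at P4 and 1396.4 and 1501.4 in culture. Both cultured arrays were the highest, by 0.23 against P0 (adjusted p = 0.482). Itgb3, the beta chain of vitronectin receptors and of platelets, read 39.7 and 27.2, 26.8 and 25.9, and 14.7 and 20.6, lowest in culture (-0.69 against P0, adjusted p = 0.223). Itgb4, the partner in hemidesmosomes, read 10.6 and 17.9, 9.7 and 18.3, and 29.4 and 21.7, above the control level only in culture (0.61 against P0, adjusted p = 0.375).

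Itga1, an alpha chain of collagen receptors, read 58.0 and 46.3 at P0, 92.3 and 49.0 at P4 and 42.7 and 132.8 in culture. The 2 cultured pools lay on either side of all 4 others, and no difference passed (0.50 against P0, adjusted p = 0.582). Itga7, a laminin receptor chain of muscle, read 28.5 to 55.9 on its brightest probe set. Itga8 read 13.6 to 28.1, and Itgav 8.2 to 21.0. Among chains of leukocytes and platelets, Itgae, which pairs with Itgb7 on lymphocytes within epithelia, read 80.1 and 88.5 at P0, 115.0 and 135.2 at P4 and 81.3 and 58.7 in culture on its brightest probe set. P4 was the highest group there without overlap (0.53 against P0, adjusted p = 0.39; culture -0.78 against P4, adjusted p = 0.14). On a dimmer tested Itgae probe set, with 49.6 and 35.3 at P0 and 45.1 and 41.1 at P4, the ages overlapped (0.03, adjusted p = 0.979). Itga2b, the platelet alpha chain, read 47.1 to 71.8, and Itgb7 30.4 to 59.6 on its brighter probe set. Itgam, the CD11b chain of macrophages and neutrophils, read 2.1 to 7.5, under the control level on all 6 arrays.

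Enzymes and partners that act on these proteins were counted on the brightest probe set of each gene. Over all probe sets tested, 0.85% were called higher at P4, 3.48% in cultured against P0 and 2.16% in cultured against P4 ovaries. The shares called lower were 0.229%, 1.95% and 0.621%. Of 9 genes of collagen synthesis and crosslinking, 2 were higher at P4 than at P0 and 1 in cultured against P0 ovaries, and 0 were lower in any comparison. Plod2, a lysyl hydroxylase that prepares collagen for crosslinking, read 158.0 and 135.0 at P0, 458.8 and 299.7 at P4 and 351.6 and 320.5 in culture. It rose by 1.30 at P4 (adjusted p = 0.0422) and by 1.16 in cultured against P0 ovaries (adjusted p = 0.0251). Pcolce, an enhancer of procollagen cleavage, read 296.7 and 351.5, 664.6 and 707.7, and 593.8 and 455.8, and rose by 1.07 at P4 (adjusted p = 0.0453). The prolyl hydroxylase subunits P4ha1 and P4hb and the collagen chaperone Serpinh1 did not pass in any comparison.

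Of 16 other basement membrane and matrix genes on the array 10 were tested. At P4 0 passed (2 were lower at an unadjusted p under 0.05), and with the batches paired 1 was lower, beside 1.96% of all probe sets. In culture 1 passed, Efemp1, higher against P4, beside 2.16% of all. Efemp1 is a fibulin whose symbol does not begin Fbln, so it was not taken as a member. It read 94.3 and 137.6 at P0, 49.0 and 59.3 at P4 and 189.7 and 130.1 in culture (1.42 against P4, adjusted p = 0.0231). Culture overlapped P0 (0.44, adjusted p = 0.409), and P4 was below P0 (-0.98, adjusted p = 0.142). Of 19 other matrix receptors and integrin partners 18 were tested. At P4 0 passed (2 were higher and 1 lower at an unadjusted p under 0.05). With the batches paired 2 were higher, beside 3.17% of all probe sets. In cultured against P0 ovaries 2 were higher, beside 3.48% of all probe sets: the tetraspanin Cd9 (1.07, adjusted p = 0.038) and Plaur. Cd9 read 318.6 and 317 at P0, 864.9 and 536.3 at P4 and 596.8 and 769 in culture. Its change at P4 was of like size (1.08, adjusted p = 0.089), and cultured and P4 ovaries differed by -0.008 (adjusted p = 0.996). In cultured against P4 ovaries 2 were higher, beside 2.16% of all: the tetraspanin Cd63 (0.69, adjusted p = 0.0479) and Plaur. Plaur, the urokinase receptor, read 14.3 and 15.2 at P0, 11.2 and 11.1 at P4 and 59.8 and 48.1 in culture (1.45 against P0, adjusted p = 0.0196, at least 2.68-fold).

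Markers of ovarian and other cell types moved with the groups, and their part in the matrix results was not tested. Beside the counts that follow, 0.85% of all probe sets tested were called higher at P4, 3.48% in cultured against P0 and 2.16% in cultured against P4 ovaries. The shares called lower were 0.229%, 1.95% and 0.621%. With the batches paired, 3.17% were called higher and 1.96% lower at P4. Of the tested macrophage and leukocyte markers, 6 of 9 were higher in culture against each age, with Lyz2 at 3.48 against P0 (adjusted p = 0.000587), and the summed intensity of the list's 11 genes on the array was 472.8 to 587.4 at P0, 327.9 to 401.6 at P4 and 1945.3 to 3972.6 in culture. Of the surface epithelium markers 3 of 4 (Krt8, Krt18 and Lgals3) were higher in culture against each age, while the other, Krt19, read 1103.3 and 1131.1 at P0, 361.7 and 571.2 at P4 and 691.0 and 480.2 in culture (-0.95 against P0, adjusted p = 0.0682). The list summed to 1394.2 to 1401.0 at P0, 549.6 to 821.0 at P4 and 1784.4 to 2120.2 in culture. Lgals3, which is not specific to this epithelium, alone gave 63.5 and 76.5 of this sum at P0, 64.3 and 75.1 at P4 and 831.7 and 641.0 in culture. Blood markers were lower in 2 of 3 in cultured against P0 ovaries, Hbb by a change of -6.55 (adjusted p = 1.39e-06), and the sums, in the same order of groups, were 3896.3 to 4009.1, 2145.7 to 2900.6 and 103.0 to 124.5. Of the oocyte markers 3 of 6 (Zp1, Zp2 and Zp3) were higher at P4 and in culture than at P0. Of the granulosa markers 2 of 9 (Inha and Cyp19a1) were higher at P4, where Fst read 560.3 and 407.1 beside 1010.6 and 813.9 at P0 (-0.91, adjusted p = 0.101). Of the same list, 3 (with Amh) were lower in cultured against P4 ovaries, and Fst was lower in cultured against P0 ovaries. Smooth muscle markers had 0 of 11 calls (at an unadjusted p under 0.05, 3 higher than at P0 at P4 and in culture, and 1 lower in cultured against P4 ovaries), with sums of 2185.2 to 2690.6, 3088.4 to 3398.2 and 1738.3 to 3219.5, and endothelial markers 0 of 7 (1 lower at P4, 3 lower in cultured against P0 and 1 higher in cultured against P4 ovaries), with sums of 759.0 to 822.9, 499.0 to 669.7 and 444.5 to 607.1. With the chip ID batches paired, P4 against P0 calls were 2 lower among macrophage markers, 2 lower among blood, 1 lower among endothelial, 1 higher among smooth muscle and 1 lower among surface epithelium markers, where 0 passed unpaired, and 3 higher and 1 lower among granulosa markers. No marker on these lists was listed at 0 on any array.

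Wide differences between the 2 pools of a group were more frequent among the members than over all probe sets, but not in every class. A difference of over 1 (log2) between pools was found in 8 of 60 members at P0 (13.3%, beside 4.87% of all probe sets), in 5 at P4 (8.33%, beside 3.47%) and in 9 in culture (15%, beside 4.4%). Fibronectin and the matricellular proteins held 4 of these at P0, 0 at P4 and 4 in culture. Laminins, basement membrane collagens and other integrin beta chains held 0 in each group. The labels' chip identifiers put P0 and P4 replicate 1 in 1 batch (A) and both replicates 2 in another (B), with each cultured array in a batch of its own. At both ages 38 of the 60 members were higher in batch B (63.3%, beside 29.3% of all probe sets), 14 were lower at both (23.3%, beside 31.4%), and 8 differed in direction. Across the 60 members the 2 differences correlated at r = 0.73, and across all 6118 probe sets at r = 0.33. Members are not independent, as several probe sets share a gene and all share the 4 arrays.

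Col3a1, Col5a1 and Sparc were among the widest gaps. Between P0 pools, replicate 2 exceeded replicate 1 by 1.33 on a Col3a1 probe set, 1.14 on that of Col5a1 and 1.97 on a Sparc probe set, and between P4 pools by 1.15, 1.40 and 0.75. Acta2, smooth muscle actin, read 349.6 and 670.6 at P0, 492.8 and 879.7 at P4 and 678.3 and 272.3 in culture, lower in replicate 1 at both ages and in replicate 2 in culture, as 3 of the 4 Sparc probe sets were. Of the 11 smooth muscle markers, 4 were higher in replicate 2 at both ages, 2 (Cnn1 and Tpm2) were lower in it at both, and 5 differed in direction between the ages. Acta2 was chosen after its values were seen. On the array controls P0 replicate 1 stood apart, with a Gapdh 3′ reading of 1324.2 beside 2162.3 to 2775.1 on the others, while the 3′ to 5′ ratio of actin was 1.75 to 2.23. The part of the batch, of smooth muscle content and of RNA quality in these gaps was not tested.

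**Figure D4:**
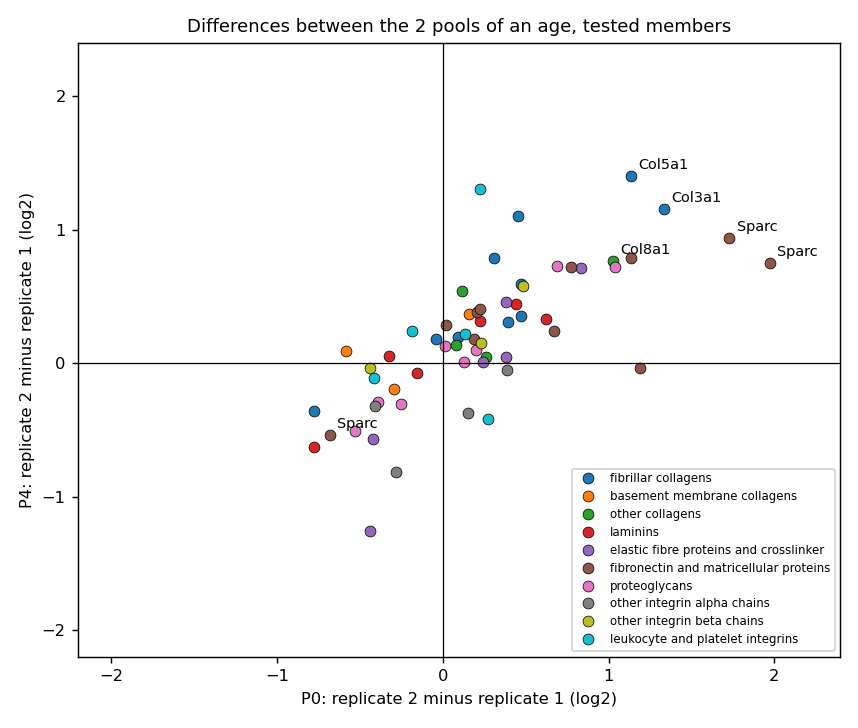
Each point is 1 tested member: the x axis is replicate 2 minus replicate 1 at P0 and the y axis the same at P4, both in log2 units, coloured by class. Of the 60 points, 38 lie in the upper right and 14 in the lower left part, and Col3a1, Col5a1 and 2 Sparc probe sets lie farthest out.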

How the data were processed

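Each of the 6 arrays measured 1 RNA pool. The deposited values are linear intensity readings per probe set, scaled by the authors to a common trimmed mean, as the values show; the algorithm is not given in the sources used here. Groups came from the sample labels.

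The values were kept as deposited. A pseudocount of 7.7 was added, log2 was taken, 59 control probe sets and 2622 below the 30th percentile of mean log2 were left out, and limma 3.58.1 in R 4.3.3 fitted 3 group means over 6 arrays with a trend in the variance (3 residual and 6.45 prior degrees of freedom), tested on simulated data. All adjusted p-values are limma's, two-sided, Benjamini-Hochberg over 6118 probe sets. Members, classes, lists and the rule for named genes were chosen with earlier results of these data known. Named are all called members, the 2 brightest and the 2 of smallest p in each class, genes whose probe sets disagree in call, and up to 4 genes of each other list with a call; further members were added after their values were seen, as was the control level.

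Symbols came from the platform annotation: 7018 probe sets had 1, 308 several and 1473 none. Promoters came from RefSeq (GRCr8) by symbol, for 30 of 43 genes. P0 and P4 replicate numbers match the chip ID batches, and their deviations correlated at 0.33, so the number pairs them. The comparison was fitted without the batch. The fit with the batch as a block used the P0 and P4 arrays alone and left fewer residual degrees of freedom than the main model. Its values are given for members where they change a call, and its counts for the other lists. Pseudocounts of 1 and 32, other filters, quantile normalization, no trend, only the compared arrays, 1 probe set per gene, a replicate block and leaving out each array were tried. The number of arrays limits the precision.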

Additional observations from a re-analysis of the deposited data

How the results depend on the processing

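With 2 pools in a group, single calls often rested on 1 array. Of 60 members, the 1 higher at P4 than at P0 became 0 with no filter on dim probe sets, with no intensity trend and with only the arrays compared, and was 0 to 1 when each array was left out. The 0 lower at P4 became 4 with the replicate block, which is the chip ID batch for P0 and P4. Against P0, the 4 lower in culture became 2 with a stricter filter (which tests fewer dim probe sets) and 2 with 1 probe set per gene, and were 1 to 4 without each array. The 0 higher became 1 with the replicate block, Col11a1 (adjusted p = 0.0367), and were 0 to 1 without each array. Against P4, the 3 lower became 1 with the stricter filter and 1 with 1 probe set per gene, and were 1 to 3 without each array; 0 were higher in every setting. For culture the block shares only a replicate number; there it took the call of Eln against P0 (adjusted p = 0.0752). Eln also lost it with no filter (adjusted p = 0.066) and with no trend (adjusted p = 0.0752), and Col11a1 at P4 lost it with no filter (adjusted p = 0.0764), no trend (0.0561) and only the compared arrays (0.0788). The brighter of the 2 called Tnc probe sets kept both calls in every setting in which it was tested, and no called member reversed its direction in any setting. Class medians moved by more than the replicate spread only when an array was left out: that of the fibrillar collagens at P4 was 0.27, and -0.07 without P4 replicate 2. Other pseudocounts and quantile normalization moved none of these counts by over 1.5 times. The cause of these shifts was not tested. The dimmer called Tnc probe set lost its call against P4 with a pseudocount of 32 (adjusted p = 0.0839) and with no filter (0.0512). Signal near the control level limits what can be read of Col11a1 at P0 and of Tnc in culture.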
